A study of Drosophila melanogaster with 7 samples.

Results

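Glutathione transferases and antioxidant enzymes were followed in the larval fat body of Drosophila melanogaster. The genes were chosen by a rule on their names and not on their values, though with earlier results of these data known. A gene was taken if its symbol in the files was Gst with a class letter and a number, or if it was Sod, Sod2, Cat, Trx-2, Trxr-1, Jafrac1, Jafrac2, Prx6005, Prx5037, Gclc, Gclm or PHGPx. This gave 33 of 14804 listed genes, namely 10 GstD, 10 GstE and 1 GstS gene and all 12 named antioxidant genes. Fat bodies came from wandering larvae, collected without gonads and pooled from 40 larvae per replicate. The 3 control libraries came from offspring of Bx-GAL4 and w1118, which carry the driver and no transgene. The 3 RasV12 libraries came from offspring of Bx-GAL4 and UAS-RasV12. All 6 therefore carry Bx-GAL4, an insertion at Beadex that drives dominant-active Ras in wing discs and salivary glands, so that the transgene is aimed at other tissues than the one sequenced. The comparison asks whether these genes differ in the fat body of larvae whose glands and discs overgrow.

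Glutathione transferases join the tripeptide glutathione to reactive or foreign compounds, and some also reduce organic peroxides. The Delta (GstD) and Epsilon (GstE) classes are expanded in insects and lie in gene clusters, while the single Sigma gene, GstS1, is known for conjugating products of lipid peroxidation. Superoxide dismutases turn superoxide into hydrogen peroxide, which catalase and the peroxiredoxins remove. Drosophila has no glutathione reductase, and thioredoxin with thioredoxin reductase recycles both glutathione and the peroxiredoxins. The fat body stores nutrients, secretes hemolymph proteins and detoxifies, much as liver does.

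Levels are given as scaled FPKM, the deposited FPKM (fragments scaled to the length of the gene model and to the mapped reads) after division by the 75th percentile of the library and rescaling to the mean percentile. They are per length and so can be compared between genes. The confidence bounds in the files imply from 2910838 fragments (control replicate 3) to 7328089 (control replicate 2) per library. All 10 fat body markers were above 0 in every library, with a summed scaled FPKM of 67656 to 173609. Markers of other tissues differed between libraries. The 15 midgut genes summed to 494 in control replicate 1, 55.8 in control replicate 2 and at most 3.30 in the others, and the 11 testis genes to 243.5 in RasV12 replicate 2, 42.3 in RasV12 replicate 3 and 0 to 13.9 in the others. Malpighian tubule, glue and muscle markers summed to at most 10.25, 23.65 and 90.2. The 9 hemocyte markers summed to 58.9, 107 and 85.0 in controls and to 102, 153 and 165 in RasV12. Of these, eater, Pxn and crq had every RasV12 library above every control. CG42640, now PPO3, went the other way, with every RasV12 library below every control, at values of 0.197 to 0.696. Hml was listed at 0 in all controls and in RasV12 replicate 1, and He in all controls and in RasV12 replicate 3. Hml had 1489 and 999 fragments in RasV12 replicates 2 and 3, and He 47 and 119 in RasV12 replicates 1 and 2. Both enter the sums, and whether their zeros show absence was not tested. CG8193, now PPO2, held 68.2 of the sum in RasV12 replicate 3 and 44.9 in control replicate 2. The hemocyte sums therefore do not show a rise in RasV12. Of the 10 fat body markers, Lsp1beta, Lsp1gamma and bmm had every RasV12 library below every control. Among all genes tested, 7.67% had every RasV12 library above every control and 7.08% had every one below. The part of these tissues in the results was not tested. In bulk tissue, fewer cells of a type and less RNA per cell cannot be told apart.

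The 33 genes covered the whole range of the tables. In controls, 11 of them had a mean scaled FPKM of at least 100, 9 lay between 10 and 100, 6 between 1 and 10 and 7 under 1. PHGPx, a glutathione peroxidase homologue, was the highest at 1580.3 ± 380 (SD, n = 3), above 99.4% of all genes. GstE3 followed at 868 ± 470.5, Cat at 722 ± 184, Sod at 545 ± 105 and GstD1 at 481 ± 228 (SD, n = 3 each). With these spreads, the neighbours from GstE3 to GstD1 cannot be ranked. GstD8, GstD9 and GstE4 were listed at 0 in all 6 libraries. GstD9 overlaps GstD1 by 18 bases, and run 3B, a shallower second run of control replicate 3, gives it an FPKM of 1.88, so the 0 does not show absence. GstD5, GstE2 and GstE10 rested on at most 9 fragments per library. GstE10 had those 9 fragments in control replicate 1, a scaled FPKM of 2.85, and was listed at 0 in the other 5 libraries. These 6 genes were not tested, and the other 27 passed the filter of a mean FPKM of at least 1.

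**Figure D1:**
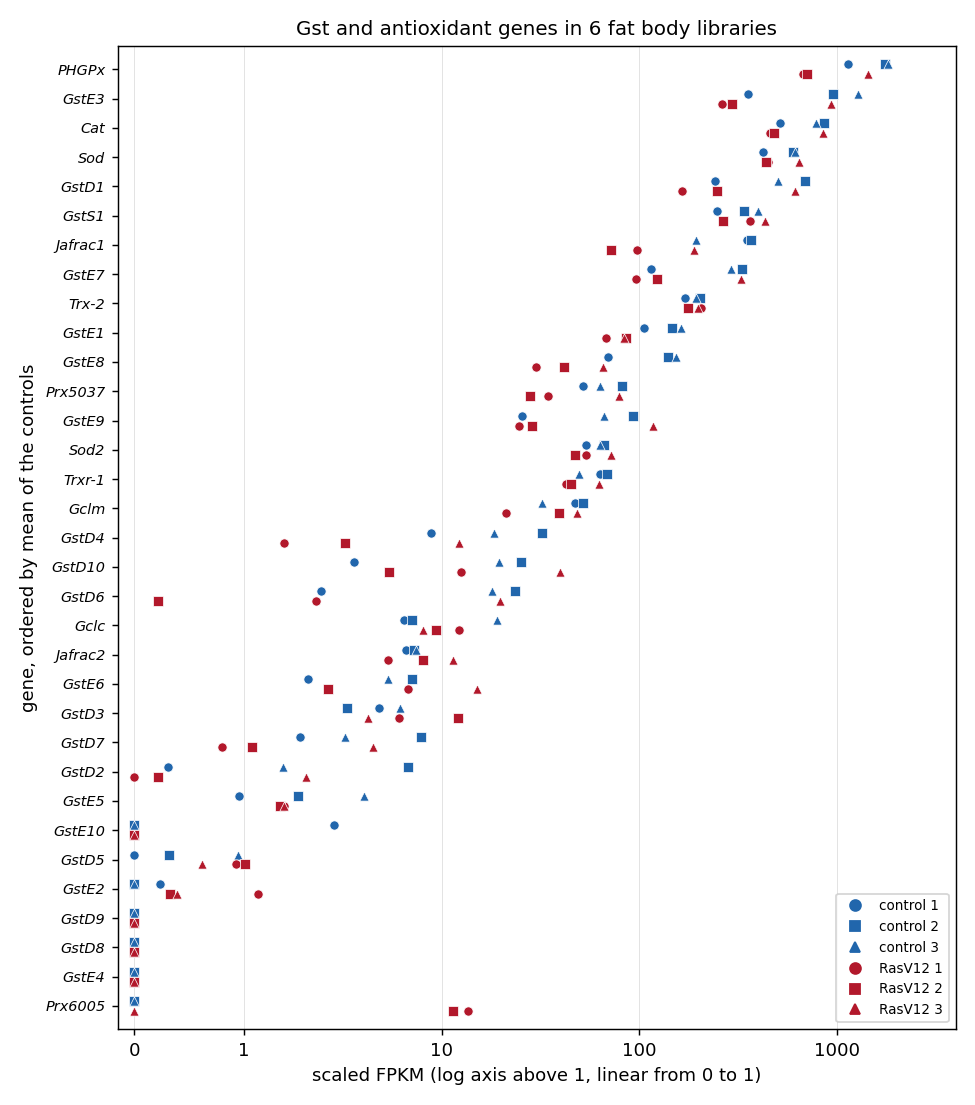
Scaled FPKM (x axis, logarithmic above 1 and linear from 0 to 1) of the 33 genes (y axis, ordered by the control mean) in each library, with blue for control, red for RasV12 and the marker shape for the replicate. PHGPx lies at the top with 678 to 1830.0, and GstD8, GstD9 and GstE4 lie at 0 in all 6 libraries.

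The 10 GstD genes lie side by side on 3R from 8190496 to 8206537 (BDGP5), a span of 16.0 kb with no other gene. GstD1 (3R, 8193269 to 8194987), which metabolises DDT and is widely used as a read-out of oxidative stress, dominated the cluster. Its scaled FPKM was 242.5, 695 and 506.5 in control replicates 1, 2 and 3 and of 164, 248 and 618 in RasV12 replicates 1, 2 and 3. Its nearest neighbours to the right, GstD2 and GstD3, reached at most 6.77 and 12.2. GstD10, at the left end, had 3.58, 25.3 and 19.6 in control and 12.5, 5.44 and 39.65 in RasV12 libraries. GstD6 had 2.46, 23.6 and 18.0 in control and 2.31, 0.21 and 19.65 in RasV12 libraries, where the value of RasV12 replicate 2 rested on 1 fragment. In both genes the groups overlapped, and the highest library exceeded the lowest of the same group by at least 7.05-fold. GstD7 had 1.92, 7.82 and 3.26 in control and 0.801, 1.09 and 4.51 in RasV12 libraries. GstD2 to GstD8 are close paralogs, and how reads matching more than one of them were handled is not given in the sources used here. All 93 GstD and GstE values above 0 rested on whole numbers of fragments, to within 1%. High fragment numbers pass this relative tolerance whatever they are, so the count does not show how shared reads were handled.

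The 10 GstE genes lie on 2R from 14284248 to 14297340, a span of 13.1 kb into which imd reaches at its right end. Their levels changed sharply from gene to gene. GstE3 (2R, 14288222 to 14288972) had 357, 964 and 1283 in control and 262, 296 and 935 in RasV12 libraries, whereas GstE2, 337 bases to its left, had at most 1.18 and GstE4 was listed at 0. GstE7 (2R, 14294425 to 14295193) had 114.6, 333 and 293 in control and 95.9, 123 and 329 in RasV12 libraries. Its left neighbour GstE6, 158 bases away, had 2.10 to 7.08 in controls and 2.66 to 15.2 in RasV12. GstE9 (2R, 14296516 to 14297340) had 25.6, 93.2 and 66.1 in control and 24.6, 28.65 and 118 in RasV12 libraries. It overlaps imd by 45 bases, which had 25.3 to 34.3 in all libraries. GstE5 had 0.957 to 4.06 in controls and 1.52 to 1.596 in RasV12. Thus in GstE3, GstE7 and GstE9, as in GstD1, control replicate 1 stood with RasV12 replicates 1 and 2, and RasV12 replicate 3 with the other controls.

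**Figure D2:**
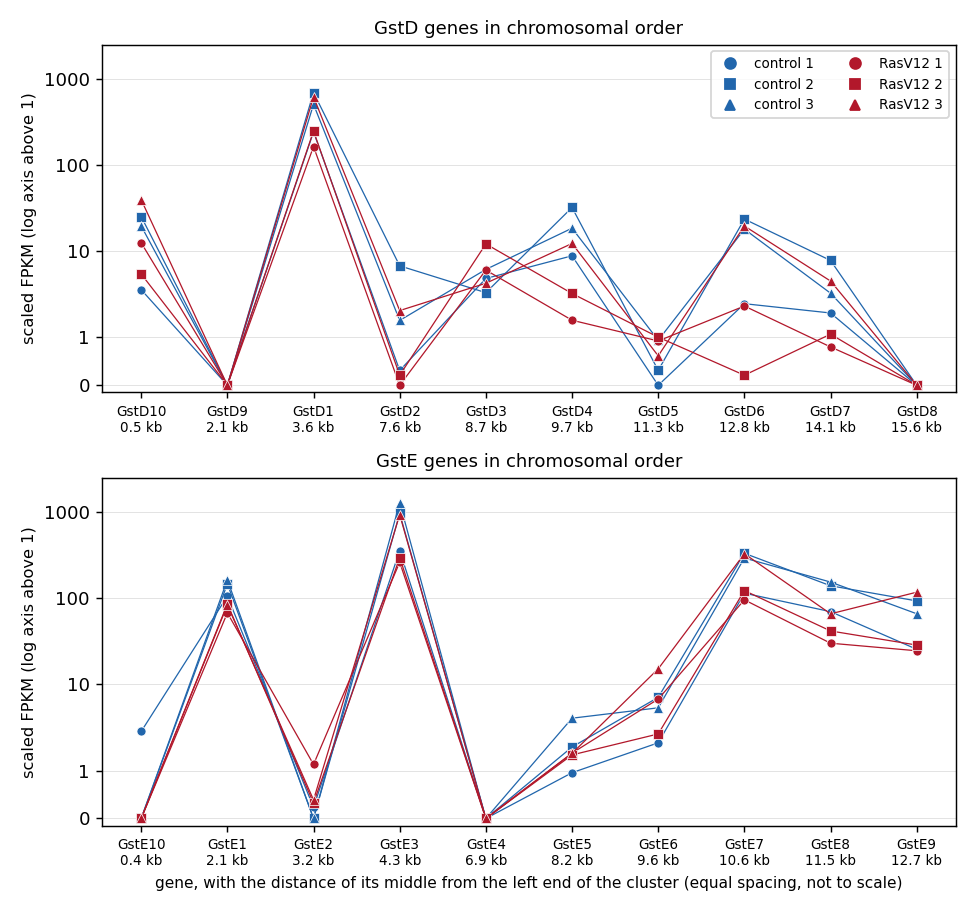
Scaled FPKM (y axis, logarithmic above 1) of the GstD genes (upper panel) and GstE genes (lower panel) in chromosomal order, 1 line per library, with the distance of each gene's middle from the left end of its cluster in kb under the name. GstD1 and GstE3 stand far above the genes beside them in every library.

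Together the 21 Gst genes summed to a scaled FPKM of 1190, 2818 and 2943 in control replicates 1, 2 and 3 and to 1043.5, 1118 and 2685 in RasV12 replicates 1, 2 and 3. The 6 genes with the highest control means, GstE3, GstD1, GstS1, GstE7, GstE1 and GstE8, held between 91.9% and 95.5% of that sum in each library. GstS1 (2R, 12980758 to 12984935) had 247, 338 and 399 in control and 366, 266.5 and 436 in RasV12 libraries. Its log2 fold change was 0.12 (95% interval -0.51 to 0.75, adjusted p = 0.896 in limma). The sum of the 12 antioxidant genes was 2835, 4088 and 3849.5 in controls and 2074, 2062 and 3611 in RasV12, again lowest in RasV12 replicates 1 and 2.

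RasV12 and control libraries were compared with limma on log2(scaled FPKM + 1), with p-values adjusted by the Benjamini-Hochberg method over the 7575 genes tested. The fold changes are on that scale, which understates the change of low genes. None of the 27 genes tested had an adjusted p under 0.05, a level reached by 8 genes of all tested (0.106%), and the lowest adjusted p among the 27 was 0.39. At an unadjusted p under 0.05, 4 of the 27 were lower in RasV12 and 1 was higher, beside 4.11% and 5.29% of all genes tested. GstE1, GstE8 and Jafrac1 had every RasV12 library below every control, and no gene of the 27 had every RasV12 library above, beside 7.08% and 7.67% of all genes. The median log2 fold change was -0.30 over the 27 genes, -0.59 over the 15 transferases and -0.19 over the 12 antioxidant genes, against 0.00 over all genes, and 19 of 27 (70.4%) were below 0, against 49.7% of all genes. Abundant genes were lower as a whole. Of the 1523 genes with a mean scaled FPKM of at least 50, 67.2% were below 0 with a median difference of -0.124, and of the 15 among the 27 genes at that level 86.7% were below 0 with a median of -0.507. Leaving out Prx6005, whose controls were all listed at 0, gave medians of -0.31 over 26 genes and -0.28 over 11 antioxidant genes. Without scaling of the libraries, the median moved to 0.20 over all genes and to -0.10 over the 27, so that both shifted upward by the same amount. That setting also turned the split of all genes at an unadjusted p under 0.05 from 401 higher and 311 lower (56.3% higher) to 794 and 99 (88.9% higher). RasV12 replicate 3 weighed on the result. Without it, 61 genes of all tested (0.803%) had an adjusted p under 0.05, among them Prx6005 at 0.0108. At an unadjusted p under 0.05, 9 of the 27 genes were then lower, beside 8.60% of all genes tested.

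**Figure D3:**
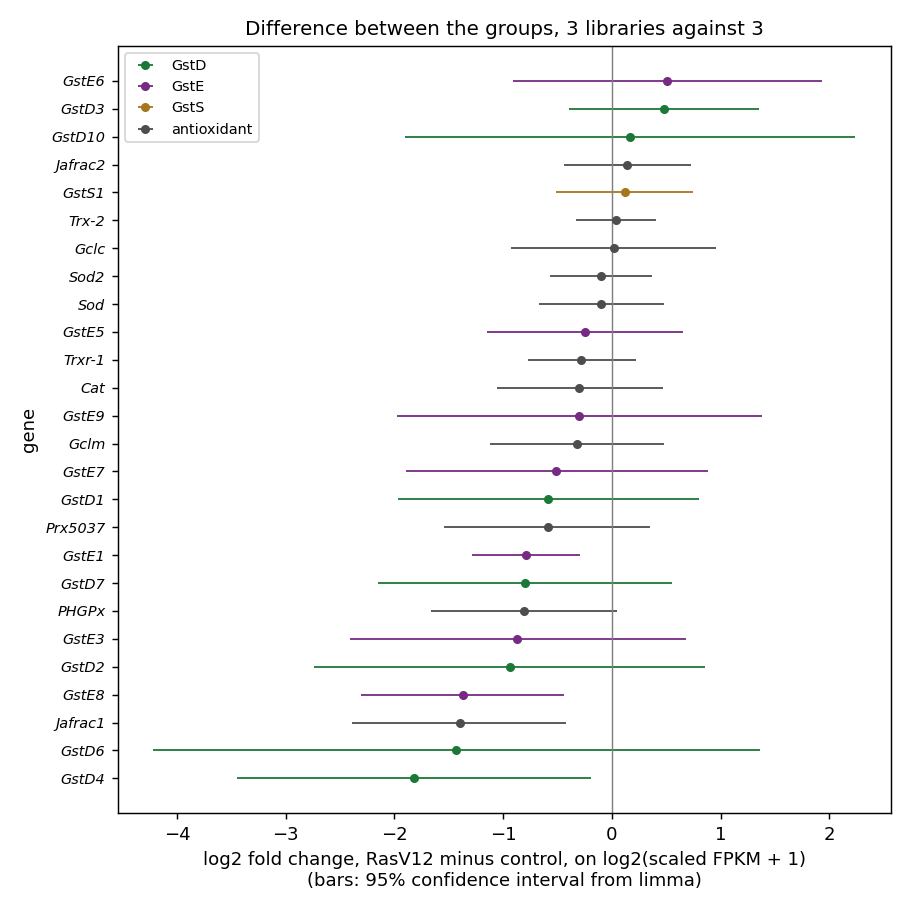
Log2 fold change, RasV12 minus control, on log2(scaled FPKM + 1) (x axis) of 26 of the 27 genes tested (y axis), with 95% confidence intervals from limma as bars and the colour for the gene class. Prx6005, listed at 0 in all controls, is left out. The intervals of GstD4, Jafrac1, GstE8 and GstE1 lie below 0, and those of the other 22 genes include 0.

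The scaled FPKM of GstE8 (2R, 14295339 to 14296067) was 70.0, 140 and 154 in controls and 30.1, 41.8 and 66.0 in RasV12, so that the groups did not overlap. Its log2 fold change was -1.37 (standard error 0.39, unadjusted p = 0.0109, adjusted p = 0.421 in limma). The gap between the groups was narrow, since control replicate 1 at 70.0 lay just above RasV12 replicate 3 at 66.0. GstE7, 145 bases to its left, did not show this pattern, since its RasV12 replicate 3 lay near its highest control. Within the summed Gst signal, a measure that does not depend on the scaling of a library, GstE8 held 5.88%, 4.96% and 5.24% in controls and 2.88%, 3.74% and 2.46% in RasV12. This share was looked at after the values of GstE8 had been seen.

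GstE1 (2R, 14285895 to 14286729) had 106, 147 and 163.5 in control and 67.7, 85.8 and 83.6 in RasV12 libraries. Every control lay above every RasV12 library, and the RasV12 values were close together. Its log2 fold change was -0.79 (standard error 0.21, unadjusted p = 0.00783, adjusted p = 0.39), the lowest p among the 27 genes. Its share of the summed Gst signal overlapped between the groups, at 5.21% to 8.88% in controls and 3.11% to 7.67% in RasV12. Both GstE1 and GstE8 kept an unadjusted p under 0.05 and a lower level in RasV12 in all 15 alternative settings, in which the log2 fold change lay between -0.97 and -0.57 for GstE1 and between -1.73 and -1.12 for GstE8.

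GstD4 (3R, 8199824 to 8200546) had the lowest fold change, with 8.85, 32.2 and 18.5 in controls and 1.58, 3.23 and 12.3 in RasV12. The groups overlapped, since RasV12 replicate 3 exceeded control replicate 1. These levels rested on 28, 121 and 23 fragments in controls and on 4, 15 and 47 in RasV12. Its log2 fold change was -1.82 (standard error 0.68, unadjusted p = 0.0339, adjusted p = 0.531), and the unadjusted p rose to as much as 0.107 in 5 of the 15 settings. Those 5 used run 3B for control replicate 3 or left out control replicate 2 or 3 or RasV12 replicate 1 or 2. As a share of the summed Gst signal, GstD4 held 0.629% to 1.14% in controls and 0.152% to 0.459% in RasV12.

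**Figure D4:**
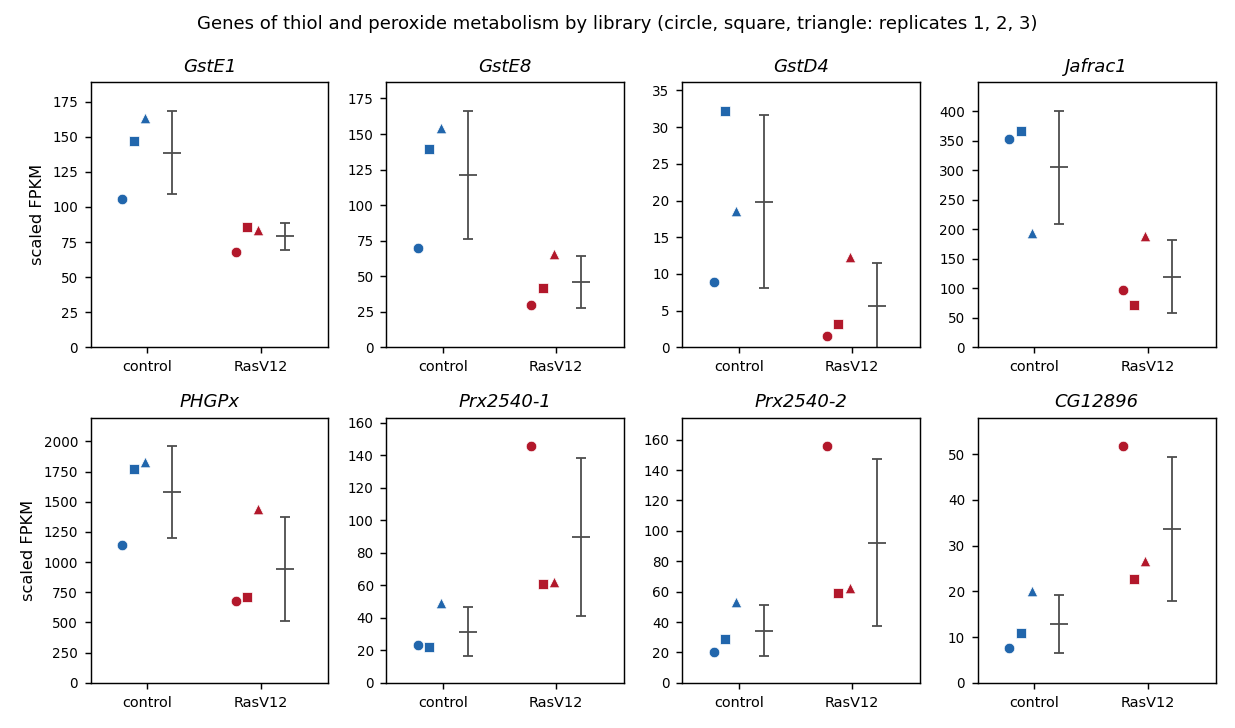
Scaled FPKM (y axes, each starting at 0) of 8 genes in control (blue) and RasV12 (red) libraries, with the replicate given by the marker shape and the mean ± SD of 3 libraries as a bar. GstE1, GstE8 and Jafrac1 have all RasV12 points below the controls, and Prx2540-1, Prx2540-2 and CG12896 have all of them above.

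Among the peroxide-removing enzymes, the peroxiredoxin Jafrac1 (X, 13223881 to 13226030), the abundant cytosolic thioredoxin peroxidase, had 353, 367 and 194.1 in control and 97.3, 72.4 and 189.2 in RasV12 libraries. The groups were separated only by the small gap between control replicate 3 and RasV12 replicate 3. Its log2 fold change was -1.40 (standard error 0.41, unadjusted p = 0.0125, adjusted p = 0.421), and the unadjusted p stayed under 0.05 in all 15 alternative settings, at 0.0439 or less. With the table labelled as merging runs 3A and 3B as control replicate 3, the closest values were 183.9 and 183.6, and with run 3B alone 208 and 187. For Jafrac1 the merged table is run 3A times 0.77, to within 1%, so it is no separate check. PHGPx (3L, 3326291 to 3328626) stood at 1143, 1768 and 1830.0 in controls and at 678, 707 and 1441 in RasV12. RasV12 replicates 1 and 2 lay below all controls and RasV12 replicate 3 among them, with a log2 fold change of -0.81 (95% interval -1.66 to 0.05, adjusted p = 0.557). PHGPx lies wholly within the span of CG11526, which had 10.4 to 13.1 in all libraries.

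The mitochondrial peroxiredoxin Prx5037 (3R, 13370950 to 13372231) likewise had RasV12 replicates 1 and 2 below all controls and RasV12 replicate 3 among them, with 52.2, 81.7 and 63.4 in controls and 34.4, 28.0 and 79.1 in RasV12. Jafrac2 (3L, 3042375 to 3044174), a peroxiredoxin of the endoplasmic reticulum, was much lower, at 6.56, 7.25 and 7.45 in controls and 5.36, 8.03 and 11.4 in RasV12. Prx6005 (2L, 2877091 to 2878149), a peroxiredoxin of the single-cysteine type, was listed at 0 in all controls and in RasV12 replicate 3 and at 13.5 and 11.5 in RasV12 replicates 1 and 2, on 38 and 59 fragments. Its unadjusted p was 0.0438 and its adjusted p 0.531, and with controls listed at 0 it has no fold. The more abundant CG8814 overlaps it by 73 bases, and in run 3B of control replicate 3 its FPKM was 7.23. The zeros therefore do not show absence, and all p-values of Prx6005 rest on them. CG8814 had 158, 155 and 108 in control and 74.5, 70.3 and 142 in RasV12 libraries, so that Prx6005 was listed above 0 in the libraries where its neighbour was lowest.

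Catalase and the superoxide dismutases showed small differences. Cat (3L, 18815706 to 18821294) stood at 516, 867 and 784 in controls and at 460.5, 481 and 852 in RasV12, with a log2 fold change of -0.30 (95% interval -1.06 to 0.47). Sod (3L, 11105381 to 11106838), the cytosolic copper and zinc enzyme, had 424, 599 and 612 in control and 449, 437 and 648 in RasV12 libraries. Sod2 (2R, 12660421 to 12661413), the mitochondrial manganese enzyme, had 53.7, 66.6 and 63.25 in control and 53.7, 47.1 and 72.3 in RasV12 libraries. The log2 fold changes of Sod and Sod2 were both -0.10 (95% intervals -0.67 to 0.48 and -0.57 to 0.37) and turned to 0.13 and 0.12 without scaling, so that their direction depends on the scaling.

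Of the 26 genes with a plotted interval, thioredoxin had the narrowest. Trx-2 (2L, 9613165 to 9616048) had 170, 203 and 194 in control and 206, 176 and 200 in RasV12 libraries and a log2 fold change of 0.04, with an interval of -0.33 to 0.41. Thioredoxin reductase, Trxr-1 (X, 8136517 to 8142072), had 63.3, 68.5 and 49.6 in control and 42.4, 45.1 and 62.8 in RasV12 libraries (log2 fold change -0.28, 95% interval -0.77 to 0.22). It overlaps sni by 821 bases, which had 18.1 to 25.2. The enzyme that makes the glutathione precursor gamma-glutamylcysteine has a catalytic subunit, Gclc, and a modifier subunit, Gclm. Gclc (X, 7996613 to 8010177) had 6.45, 7.05 and 19.1 in control and 12.3, 9.34 and 8.07 in RasV12 libraries, where control replicate 3 stood apart. Gclm (3R, 18511022 to 18512249) was more abundant, with 47.1, 52.1 and 32.3 in controls and 21.1, 39.1 and 48.45 in RasV12. Their log2 fold changes were 0.02 (95% interval -0.93 to 0.96) and -0.32 (95% interval -1.12 to 0.48).

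As in most genes, the libraries of a group differed more than the groups did. The larger within-group range exceeded the difference between the group means in 24 of the 27 genes (88.9%), beside 92.3% of all genes. The exceptions were GstE1, GstE8 and Jafrac1. This count is near the share of all genes and is not particular to the 27. The ranges were nevertheless wide for these genes. The median range of log2(scaled FPKM + 1) was 0.915 in controls and 1.33 in RasV12, against 0.421 and 0.456 over all genes tested, and for the 15 transferases it was 1.53 and 1.77. The libraries took a recurring order. Control replicate 2 was the highest of the 6 in 11 of the 27 genes, RasV12 replicate 3 in 7 and control replicate 3 in 6. These are 40.7%, 25.9% and 22.2%, beside 15.7%, 13.7% and 17.1% of all genes tested. Control replicate 1 was the highest in none, beside 15.7%. RasV12 replicate 1 was the lowest in 14 of the 27 genes (51.9%, beside 15.3% of all genes tested), and control replicate 1 in 8 (29.6%, beside 16.8%). The 8 include Prx6005, where control replicate 1 was tied at 0 with the other controls and RasV12 replicate 3. In 14 genes, GstD1, GstD2, GstD4, GstD6, GstD7, GstD10, GstE3, GstE7, GstE9, Cat, PHGPx, Prx5037, Sod and Sod2, control replicates 2 and 3 and RasV12 replicate 3 were the 3 highest libraries. This order was found in 51.9% of the 27 genes and in 10% of all genes tested. It was noticed in these data, and neighbouring genes of a cluster are not independent of each other. The 3 low libraries were control replicate 1 and RasV12 replicates 1 and 2, with midgut markers at 494, 3.25 and 3.29. What underlies this order was not tested.

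**Figure D5:**
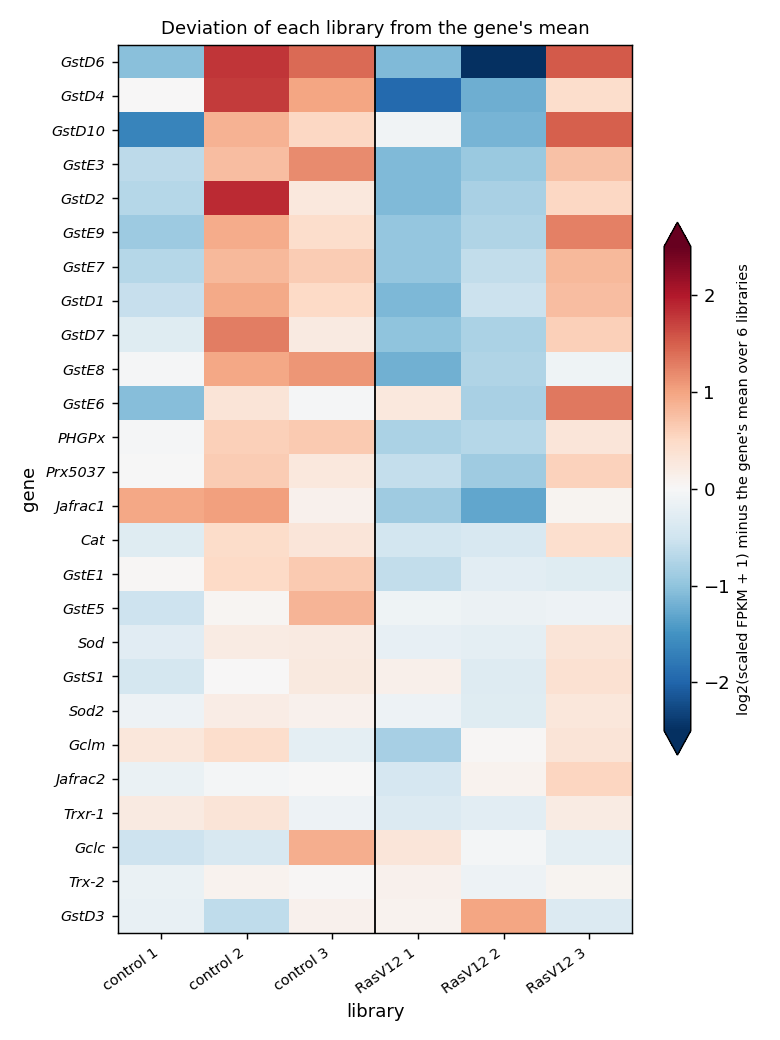
Log2(scaled FPKM + 1) in each library minus the mean of the gene over the 6 libraries, red above and blue below the mean, for 26 of the 27 genes tested (rows) and the 6 libraries (columns, with a line between control and RasV12). Rows are ordered by the summed deviation of control replicates 2 and 3 and RasV12 replicate 3, so these libraries are red in the upper rows by that order. Control replicate 1 and RasV12 replicates 1 and 2 are mostly blue there.

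Genes of the same pathways outside the 33 were taken from 5 lists. Their median log2 fold change was 0.10 for other thiol and peroxide enzymes, -0.55 for suppliers of NADPH, 0.06 for regulators, 0.00 for transferases under other symbols and -0.08 for glutathione synthesis and turnover, against 0.00 over all genes tested. Of 17 other thiol and peroxide enzymes, 12 were tested, of which 3 had an unadjusted p under 0.05, all higher in RasV12, beside 5.29% of all genes, and 5 did not overlap between groups, all higher, beside 7.67%. None of them passed after adjustment. The 3 are peroxiredoxin genes that lie within a short stretch of 2R. Prx2540-1 (2R, 6311941 to 6312976) had 23.2, 22.3 and 48.9 in control and 146, 61.1 and 62.1 in RasV12 libraries, with a log2 fold change of 1.45 (unadjusted p = 0.0141, adjusted p = 0.422). Prx2540-2 (2R, 6306223 to 6307278) had 20.5, 29.0 and 52.9 in control and 156, 58.9 and 62.2 in RasV12 libraries (log2 fold change 1.36, adjusted p = 0.51). CG12896 (2R, 6314385 to 6315418) had 7.645, 10.9 and 20.0 in control and 51.7, 22.7 and 26.6 in RasV12 libraries (log2 fold change 1.33, adjusted p = 0.437). Over the alternative settings the unadjusted p reached 0.0495 for Prx2540-1, 0.0862 for Prx2540-2 and 0.0531 for CG12896. In all 3 genes RasV12 replicate 1 was the highest library and control replicate 3 the highest control. The genes are close copies of each other, so that reads may be shared between them and the 3 values are not separate measurements. Jafrac1, of another peroxiredoxin type, was lower in RasV12, and its lowest libraries were RasV12 replicates 2 and 1.

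The other genes of this list without overlap were Irc and TrxT. Irc (3R, 12828599 to 12832930), a secreted catalase of the gut immune response, had 247, 218 and 253 in control and 339, 283 and 272 in RasV12 libraries (log2 fold change 0.31, adjusted p = 0.592). TrxT, a thioredoxin of the testis, was listed at 0 in all controls and had 0.222, 6.45 and 1.02 in RasV12, on 1, 53 and 7 fragments. It was highest in RasV12 replicate 2, the library with the testis markers at 243.5.

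Of 5 enzymes that supply NADPH, the reductant of the thioredoxin system, 2 had an unadjusted p under 0.05, both lower in RasV12, beside 4.11% of all genes. Zw (X, 19561266 to 19566385), the glucose-6-phosphate dehydrogenase that starts the pentose phosphate pathway, had 11.2, 13.9 and 11.65 in control and 7.16, 8.04 and 8.87 in RasV12 libraries, without overlap. Its log2 fold change was -0.55 (standard error 0.14, unadjusted p = 0.00608, adjusted p = 0.365), and the unadjusted p was 0.108 without scaling. The malic enzyme gene Men (3R, 8538819 to 8548267) had 581, 915 and 603 in control and 219, 133 and 619 in RasV12 libraries, where RasV12 replicate 3 lay among the controls (log2 fold change -1.38, unadjusted p = 0.0425, adjusted p = 0.531). Its unadjusted p stayed under 0.05 in 6 of 15 alternative settings. A second malic enzyme gene, Men-b, listed under the symbol Mdh, had 0.785 to 1.22 in controls and 1.32 to 1.79 in RasV12, without overlap, on 4 to 36 fragments. Among all genes tested, 7.08% were lower and 7.67% higher in RasV12 without overlap.

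Of the 3 regulators of the antioxidant response that were tested, none had an unadjusted p under 0.05. The activator gene cnc (3R, 19011300 to 19047683) had 64.4, 64.01 and 55.8 in control and 64.4, 64.6 and 78.55 in RasV12 libraries, and its inhibitor Keap1 a log2 fold change of -0.43 (adjusted p = 0.567). The cnc groups did not overlap, with RasV12 higher, beside 7.67% of all genes tested, but control replicate 1 and RasV12 replicate 1 were equal to 3 digits. Of 17 transferase genes under other symbols, 13 were tested, and 1 had an unadjusted p under 0.05, higher in RasV12, beside 5.29% of all genes tested. This was CG6662, now named GstO1, at 0.215 to 0.553 in controls and 1.07 to 2.82 in RasV12 (unadjusted p = 0.0314, adjusted p = 0.531), where the controls rested on 1 to 3 fragments and no fold is given. CG9363, now GstZ2, also had all RasV12 values above the controls, on 34, 3 and 5 fragments against 1, 0 and 0. Thus 2 of the 13 were higher without overlap, beside 7.67% of all genes tested. Of 6 other genes of glutathione synthesis and turnover, 5 were tested, and CG4829 was higher at an unadjusted p of 0.0326, with 1.27, 2.69 and 2.10 in controls and 3.39, 3.24 and 5.01 in RasV12 (log2 fold change 0.70, adjusted p = 0.531). The unadjusted p of CG6662 and CG4829 stayed under 0.05 in 8 of 13 and 10 of 14 settings in which they were tested.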

How the data were processed

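Paired reads of 6 fat body libraries were mapped to BDGP5 with TopHat (1.0.14 in the submitters' processing notes), and the authors deposited Cufflinks (0.0.5) FPKM with confidence bounds per gene. For control replicate 3, which has runs 3A and 3B, run 3A was used, because the rule that set the genes and libraries names it. The table labelled as both merged equals run 3A times 0.77 for 94.3% of 6869 genes, to within 1%. Values on 3 fragments or fewer were read as at the floor, but they stayed in the fits, medians and counts. Fragments behind an FPKM were worked out from its bounds. They summed to 6271265, 7328089 and 2910838 in controls and 4649422, 7137448 and 7305940 in RasV12, and cover counting error only.

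FPKM were scaled by the 75th percentile, taken over all genes with a value above 0 in any library. Limma (lmFit, then eBayes with trend, two-sided and without a block) was run on log2(scaled FPKM + 1) for genes whose mean FPKM reached 1, with Benjamini-Hochberg adjustment. P-values measure the spread between these libraries, each a pool of 40 larvae, and the labels give no batch. Genes and lists were chosen with earlier results of these data known. All 33 genes were named, most with values in every library and some by a range, a maximum or fragments only. Of the 5 related lists, the genes at an unadjusted p under 0.05 or without overlap were named with values or fragments. Keap1, Mgstl, Pgd and the genes named for the library order were chosen after their values were seen. Of 48 related names, 43 were matched by symbol, and the other 5 through a newer annotation, which was used for names only. Coordinates are those of the files, with 1 added to the start. Alternatives are a pseudocount of 0.1 or 5, a filter at a mean FPKM of 5 or none, the median of ratios or no scaling, the merged table or run 3B, a replicate block, and leaving out each library. The merged table is mostly run 3A rescaled, so that setting adds little to the main one. Tools were R 4.3.3 with limma 3.58.1, and pandas 2.3.3, numpy 2.4.6 and matplotlib 3.10.9 in Python 3.11.15. Promoter and protein sequences were not used here.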

Additional observations from a re-analysis of the deposited data

How the results depend on the processing

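Of all genes tested, 8 had an adjusted p under 0.05, and 12 had one with a pseudocount of 0.1, 5 with a pseudocount of 5, 5 with run 3B and 3 with a replicate block. Leaving out a library gave 5 to 61 such genes and 391 to 1267 genes at an unadjusted p under 0.05 in place of 712, with the highest counts without RasV12 replicate 3. Of the 27 genes, 4 were lower at an unadjusted p under 0.05, 6 with the block, which added GstE3 and PHGPx, and 3 to 9 with a library left out, beside 4.11% of all genes tested, 2.67% with the block and 1.81% to 8.60% with a library left out. The 1 higher gene, Prx6005, lost this p with a pseudocount of 0.1 or run 3B (0 genes each) and without a filter, where GstE2 was the 1 higher gene. At a mean FPKM of at least 5 it was not tested (0 genes), and 0 to 1 were higher with a library left out. Same-numbered libraries had correlations across genes of their deviations from the group mean of 0.0879, -0.168 and -0.15. The highest of the other pairs was 0.352, for control replicate 2 and RasV12 replicate 3 over all 7575 genes tested, and the rest lay between -0.211 and 0.101. These values cannot show whether same-numbered libraries were prepared together, and the labels give no batch. Of 40 genes followed over 15 settings, 28 kept their direction in all. Outside the left-out libraries, the log2 fold change turned to 0.52 for GstE5, 0.08 for Sod2 and 0.00 for Mdh with run 3B, to -0.01 for Gclc with a pseudocount of 5, and to 0.13 for Sod and 0.12 for Sod2 without scaling. With a library left out it ranged from -0.61 to 0.79 for GstD10, -0.57 to 0.11 for GstE5, -0.02 to 1.04 for GstE6, -1.0 to 0.10 for GstE9, -0.07 to 0.31 for GstS1, -0.24 to 0.48 for Gclc, -0.56 to 0.01 for Gclm, -0.09 to 0.38 for Jafrac2, -0.28 to 0.00 for Sod, -0.27 to 0.03 for Sod2 and -0.04 to 0.10 for Trx-2. The cause of these changes was not tested. Depth limits the low transferases, since GstD2 to GstD7, GstE2, GstE5 and GstE6 have libraries with 8 fragments or fewer.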

Other observations

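The library order of the transferases was also looked for among the genes of the related lists, after their values had been seen. CG5224, CG6673, CG32495, CCS, dj-1beta and Men had it, an order found in 10% of all genes tested. CG5224, now GstE11, had 20.0, 32.7 and 29.2 in controls and 18.0, 21.5 and 45.0 in RasV12. The fat body markers Lsp1alpha, Rfabg and desat1 had the order too, and the other fat body markers did not. Other genes of the related lists, among them the next ones, did not have it. Mgstl, a membrane-bound microsomal transferase, had 337, 498 and 276 scaled FPKM in the control libraries and 132, 88.5 and 399 in RasV12, with a log2 fold change of -1.10 (adjusted p = 0.586 in limma). Pgd, the enzyme that follows Zw in the pentose phosphate pathway after lactone hydrolysis, had 154, 237 and 115.1 in controls and 61.15, 56.9 and 152 in RasV12 (log2 fold change -0.99, adjusted p = 0.561). In both genes RasV12 replicates 1 and 2 lay below every control and RasV12 replicate 3 among the controls, while control replicate 1 was not low, unlike in GstD1, GstE3 and GstE7.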
